A study of Mus musculus with 4 samples.

Results

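The expression of 9 genes of the bone morphogenetic protein (BMP) pathway was followed in cultured mouse hair follicle cells. The genes were 5 ligands (Bmp2, Bmp3, Bmp4, Bmp6 and Bmp7), 3 secreted antagonists (Nog, Grem1 and Fst) and the pseudoreceptor gene Bambi. They were taken from the count table as the rows whose gene name equals one of these names, which gave 9 of 51826 genes. All 9 passed the minimum of 10 counts on average per library and so belonged to the 16734 genes compared.

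RNA was sequenced from dermal papilla cells (DPCs), the mesenchymal cells at the base of the follicle, and from dermal sheath cells (DSCs), which line its outside. DPCs were the cultured outgrowth of papillae freed with collagenase and DSCs the cultured cells of digested sheath, from whisker follicles of EGFP-transgenic C57BL/6J mice aged 5 to 6 weeks, while the labels give the genotype as WT. Cells at passage 3 (P3) and at passage 9 (P9) have no other treatment in the labels, and each of the 4 groups was 1 library with a total of 34981284 to 47604059 counts, while the number of cultures and animals behind a library was not given in the sources used here. With 1 library per group no difference has a replicate check, no test was run, and an effect of passage cannot be told apart from a difference between cultures or in when libraries were made.

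BMPs are secreted dimers that bind type I and type II receptors, which phosphorylate Smad1, Smad5 and Smad9 and induce targets such as the Id genes. Noggin, gremlin 1 and follistatin bind ligands outside the cell, and Bambi resembles a type I receptor without the kinase. In the hair follicle, BMP signals keep stem cells at rest and help papilla cells to hold their hair-inducing state, and BMP antagonists from the dermis favour the start of hair growth.

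The letters upstream of Bmp4 and Grem1 are shown because Grem1 was the most abundant antagonist, Bmp4 the most abundant ligand in 3 of the 4 libraries, and the ratio of their reads was higher at P9 in both cell types. RefSeq entries (GRCm38.p6) were found for 3 of the 9 genes, Bmp6 being the third. Each run gives the 250 bases before the start, 5′ to 3′ on the minus strand, with capitals for the motifs found on either strand: the GC box (GGGCGG or its reverse complement) and the GC-rich Smad element (GGCGCC). The Grem1 window is chr2:113758649-113758898 and the Bmp4 window is chr14:46390670-46390919.
Grem1: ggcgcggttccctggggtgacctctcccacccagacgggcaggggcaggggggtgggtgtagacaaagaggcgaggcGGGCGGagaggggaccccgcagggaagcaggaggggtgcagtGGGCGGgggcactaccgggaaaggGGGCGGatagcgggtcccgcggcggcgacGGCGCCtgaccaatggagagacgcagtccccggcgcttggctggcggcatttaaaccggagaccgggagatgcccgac
Bmp4: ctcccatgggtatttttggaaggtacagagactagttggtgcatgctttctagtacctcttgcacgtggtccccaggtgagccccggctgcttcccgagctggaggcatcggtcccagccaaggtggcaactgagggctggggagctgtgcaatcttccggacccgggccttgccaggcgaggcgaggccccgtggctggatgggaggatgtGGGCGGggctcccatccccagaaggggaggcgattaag
The Grem1 window held 3 GC boxes, beginning 173, 131 and 107 bases before the start, and 1 GC-rich Smad element at 78 bases. The Bmp4 window held 1 GC box, at 38 bases. None of these matches overlapped another, and neither window held TATAAA. Of 32851 promoter windows of the same length, 32.7% held a GC box, 9.59% the Smad element and 12.4% TATAAA. The Grem1 window was 72% G or C with 24 CpG sites and the Bmp4 window 63.2% with 11, against medians of 52.4% and 6 over all promoters. These are matches of letters, not binding sites.

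Bmp4 was the main ligand in 3 of the 4 libraries and fell in P9 DPCs. It encodes a ligand made by papilla and other dermal cells. Raw counts were 2104 in P3 DPCs, 137 in P9 DPCs, 5931 in P3 DSCs and 5724 in P9 DSCs, or 57.2, 3.82, 156 and 126 CPM (counts scaled to library size with the TMM method). P9 DPCs therefore stood below the other libraries, and both DSC libraries stood above both DPC libraries. Between passages the level in DPCs dropped by 3.89 on the log2 scale (95% interval from -4.16 to -3.65), a 14.8-fold difference, while in DSCs the log2 difference was -0.32 (-0.37 to -0.26). These intervals come from the exact binomial share of the reads of a pair of libraries, compare those libraries and not the conditions, and cover counting error only. In RNA from whole cultures, fewer cells of a type and less RNA per cell cannot be told apart. The gene lies on chromosome 14 at 46383520 to 46390669, minus strand, and 89 of its exonic bases (3.96%) are shared with the opposite-strand gene Gm15217, which had at most 10 counts in a library.

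Bmp3 moved the other way in DPCs. It encodes an unusual member of the family that restrains the signal of other BMPs. Raw counts were 146 in P3 and 1432 in P9 DPCs, against 41 and 27 in DSCs, or 3.97, 39.9, 1.08 and 0.592 CPM in that order. P9 DPCs stood above the other 3 libraries. The gene rose with passage in DPCs by 3.31 on the log2 scale (3.08 to 3.59), which is 9.94-fold. In DSCs the log2 difference was -0.81 (-1.63 to -0.13), and that interval held 0 when counts were halved (-2.02 to 0.19), as they would be if both mates of a read pair had been counted. The gene spans 98854415 to 98884396 on chromosome 5, plus strand.

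Bmp2, Bmp6 and Bmp7 were low in every library. Bmp2 and Bmp7 encode ligands that act in bone, limb and skin development, and Bmp6 a ligand best known from iron control and cartilage. Bmp2 had 41 counts in P3 DPCs, 13 in P9 DPCs, 24 in P3 DSCs and 140 in P9 DSCs, or 1.11, 0.362, 0.633 and 3.07 CPM. P9 DSCs were highest and P9 DPCs lowest. Its log2 difference with passage was -1.49 in DPCs (-2.65 to -0.69), under the 4-fold threshold, and it rose in DSCs by 2.19 (1.65 to 2.97), or 4.57-fold, a call lost with a prior count of 10 (1.90) and on FPKM with a pseudocount of 0.1 (1.73) or 1 (0.59). Bmp7 had 9, 38, 0 and 51 counts in the same order of libraries, or 0.245, 1.06, 0 and 1.12 CPM. Both P9 libraries were above both P3 libraries. In DSCs it rose at least 14.1-fold with the count of 0 set to its limit of 3 counts (at least 7.07-fold if both mates were counted), a bound that leaves out the counting error of the other library. The interval, which holds both errors, began at a log2 difference of 3.47, or 2.39 with halved counts. The call of Bmp7 in DSCs was lost on FPKM with a pseudocount of 0.1 (1.84) or 1 (0.33). In DPCs its log2 difference was 1.91 (1.04 to 3.35), just under 4-fold. Bmp6 was nearly level, with 85, 100, 84 and 142 counts, or 2.31, 2.79, 2.22 and 3.12 CPM. Its log2 differences were 0.27 (-0.16 to 0.71) in DPCs and 0.48 (0.09 to 0.90) in DSCs. The DSC interval held 0 with halved counts (-0.08 to 1.08). Bmp6 shares 224 exonic bases (5.74%) with Txndc5 on the opposite strand, which had 9105 to 14183 counts, so some Bmp6 reads could belong to Txndc5 unless strand was used. On chromosome 2, Bmp2 lies at 133552159 to 133562885 (plus strand) and Bmp7 at 172868012 to 172940321 (minus strand). Bmp6 lies on chromosome 13 at 38345716 to 38499728, plus strand.

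Grem1, the antagonist that binds BMP2, BMP4 and BMP7, was the most abundant of the 9 genes in each library. Raw counts were 38107 in P3 DPCs, 39853 in P9 DPCs, 40481 in P3 DSCs and 104978 in P9 DSCs. These correspond to 1036, 1111, 1067 and 2304 CPM, so that 3 libraries lay close together and P9 DSCs stood above them. The log2 difference with passage was 0.10 in DPCs (0.08 to 0.12) and 1.11 in DSCs (1.09 to 1.13), the latter 2.16-fold and under the 4-fold threshold. By FPKM (fragments scaled for transcript length and for the depth of the library), Grem1 ranked 253rd, 197th, 256th and 98th of all genes in the order of libraries above, and Bmp4 ranked 2701st, 11530th, 894th and 1148th. Grem1 lies on chromosome 2 at 113746164 to 113758646, minus strand.

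Nog and Fst were far less abundant than Grem1. Noggin blocks BMP2, BMP4 and BMP7, and follistatin binds activin more tightly than BMPs. Nog had 10 counts in P3 DPCs, then 46, 48 and 54 in P9 DPCs, P3 DSCs and P9 DSCs, or 0.272, 1.28, 1.27 and 1.18 CPM. P3 DPCs stood below the other libraries, whose counting intervals overlapped. Nog rose with passage in DPCs by 2.05 on the log2 scale (1.23 to 3.39), or 4.13-fold. That call was lost with halved counts (1.89), with a prior count of 10 (1.54) and on FPKM with a pseudocount of 0.1 (1.73) or 1 (0.57). The log2 difference of Nog in DSCs was -0.09 (-0.68 to 0.50). Fst had 488, 126, 310 and 507 counts, or 13.3, 3.51, 8.17 and 11.1 CPM. P9 DPCs were lowest. Its log2 differences of -1.90 in DPCs (-2.21 to -1.63) and 0.44 in DSCs (0.24 to 0.65) were both under 4-fold. Nog lies on chromosome 11 at 89300638 to 89302332 and Fst on chromosome 13 at 114452262 to 114458730, both on the minus strand. Fst shares 115 exonic bases (2.51%) with the opposite-strand gene Gm47040.

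Bambi encodes a pseudoreceptor that resembles a type I receptor without the kinase. It had 489 counts in P3 DPCs, 257 in P9 DPCs, 262 in P3 DSCs and 236 in P9 DSCs. These correspond to 13.3, 7.16, 6.91 and 5.18 CPM. P3 DPCs were highest. The log2 difference with passage was -0.89 in DPCs (-1.12 to -0.67) and -0.41 in DSCs (-0.68 to -0.16), so neither passed 4-fold. The gene lies on chromosome 18 at 3507957 to 3516404, plus strand.

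**Figure D1:**
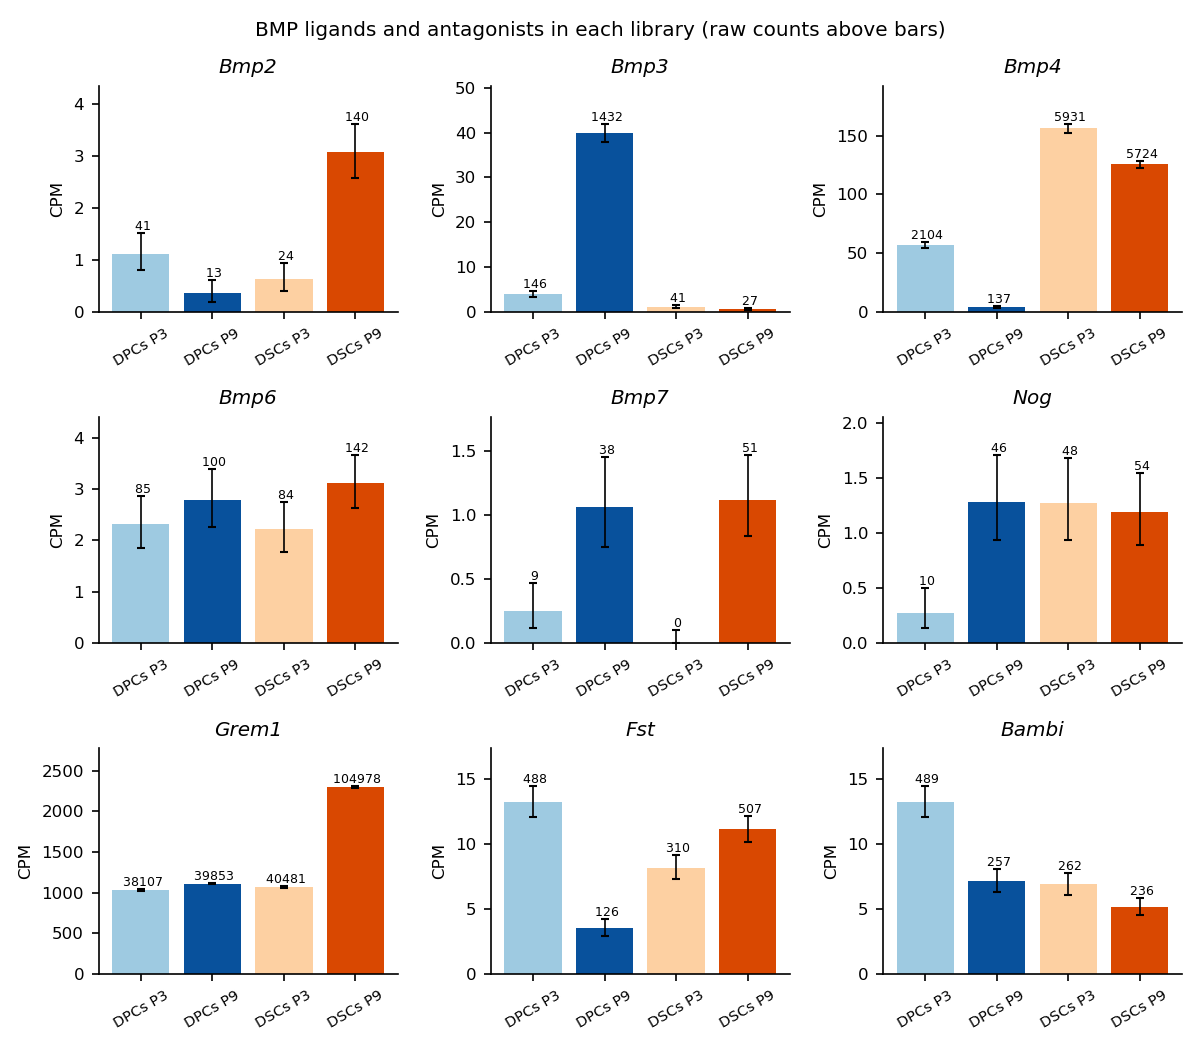
Level of each of the 9 genes in the 4 libraries, as CPM on linear axes that start at 0 and differ between panels; bars are single libraries, error bars 95% Poisson counting intervals, and the printed numbers raw counts. Bmp4 is lowest and Bmp3 highest in P9 DPCs, at 3.82 and 39.9 CPM, and Grem1 lies at 1036 CPM or above in every library.

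The first question was which of these genes differed between passages in each cell type. In DPCs, 2 of the 9 (Bmp3 and Nog) were at least 4-fold higher at passage 9, where 5.58% of all compared genes were, and 1 (Bmp4) was at least 4-fold lower, where 4.36% were. In DSCs, 2 (Bmp2 and Bmp7) were higher, against 2.67% of all genes, and 0 were lower, against 1.16%. No gene of the 9 passed in both cell types in the same direction, while 1.27% of all genes did so upward and 0.508% downward. The median log2 difference of the 9 was 0.10 in DPCs and 0.44 in DSCs, beside 0.03 and 0.00 over all compared genes. The counting interval left out 0 for 8 of 9 in DPCs, all but Bmp6, and for 8 of 9 in DSCs, all but Nog. At this depth 77.6% and 66.7% of all genes did the same, so those shares of 8 in 9 say little about these genes.

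**Figure D2:**
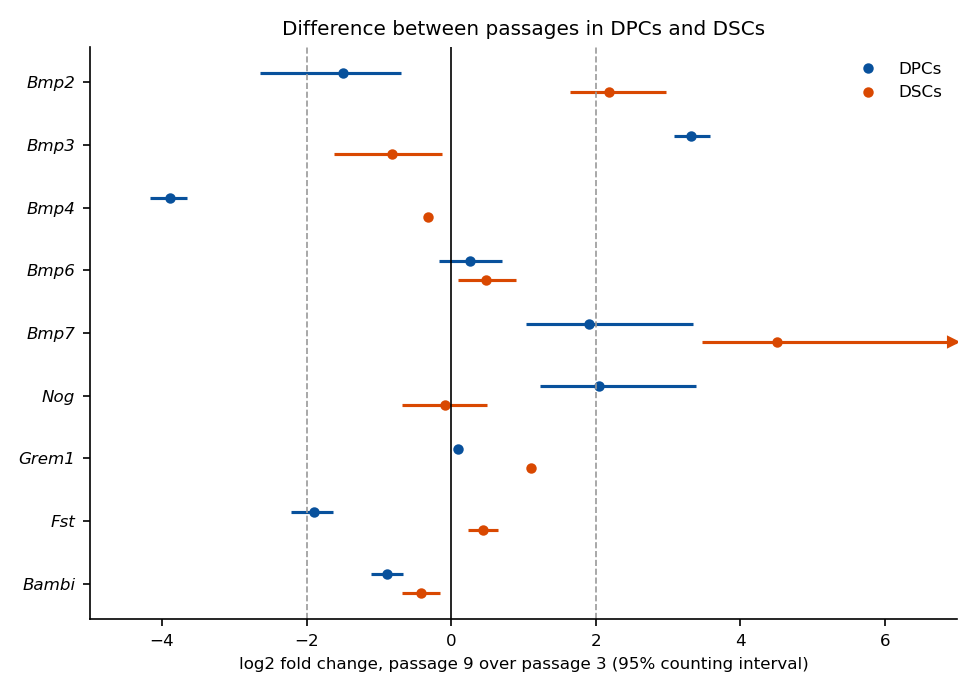
Log2 fold change from passage 3 to passage 9 (x axis) of each gene in DPCs (blue) and DSCs (orange), with 95% counting intervals and dashed lines at 4-fold; the arrow marks an interval with no upper limit. Bmp3 lies at 3.31 in DPCs and -0.81 in DSCs, Bmp4 at -3.89 and -0.32, and Bmp2 at -1.49 and 2.19.

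The cell types were then set side by side in the passage difference of each gene. For Bmp2, Bmp3 and Fst the passage intervals lay on opposite sides of 0 in DPCs and DSCs, which is 3 of 9, against 11.6% of all genes. The passage difference in DPCs minus that in DSCs, on the log2 scale, was -3.69 for Bmp2, 4.13 for Bmp3 and -2.34 for Fst. It was -3.57 for Bmp4, 2.14 for Nog, -2.61 for Bmp7, -1.01 for Grem1, -0.47 for Bambi and -0.22 for Bmp6. The value of Bmp7, which rests on a count of 0, was -4.41 with a prior count of 0.5 and -1.03 with 10. Bmp3 stood at percentile 99.4 of this difference over all compared genes, Bmp4 at 1.00 and Bmp2 at 0.896, whereas Bmp6 stood at 38.8. With single libraries these differences were not tested.

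**Figure D3:**
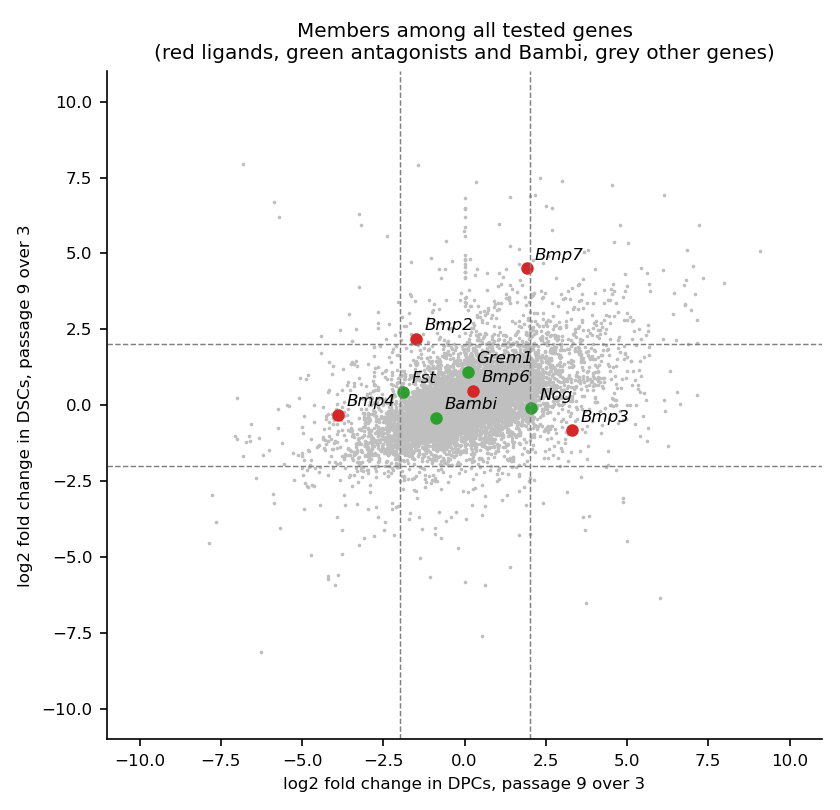
Log2 fold change with passage in DPCs (x axis) and DSCs (y axis) for all 16734 compared genes (grey), the 5 ligands (red) and the antagonists with Bambi (green); dashed lines mark 4-fold. Bmp4 and Bmp3 lie far out along the DPC axis with -0.32 and -0.81 for DSCs, and Bmp7 lies high on the DSC axis at a fitted 4.51, which depends on the prior count because its P3 DSC count was 0.

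The next question was how DPCs and DSCs differed at one passage. At passage 3, Bmp7 had 9 counts in DPCs against 0, at least 3.09-fold higher with the 0 set to 3 counts (at least 1.55-fold if both mates were counted). Its interval began at a log2 difference of 1.02 and held 0 with halved counts (-0.56), and its fitted log2 difference of 2.53 passed the threshold, as did 1.52% of all genes. Nog was lower in DPCs by 2.03 on the log2 scale (interval from -3.37 to -1.22), on the side where 2.77% of all genes passed. Both calls rested on 10 or fewer counts in DPCs and were lost with halved counts. Bmp4 was lower in DPCs (log2 difference -1.45, -1.52 to -1.38) and Bmp3 higher (1.83, 1.37 to 2.41), both under 4-fold, and Bambi differed by 0.94 (0.72 to 1.17), Bmp2 by 0.77 (0.05 to 1.61) and Fst by 0.69 (0.49 to 0.91). Grem1 was nearly equal, with a log2 difference of -0.04 (-0.06 to -0.02), which became 0.05 when libraries were scaled by total counts. The interval left out 0 for 8 of 9, all but Bmp6, beside 59.5% of all genes, and the median of the 9 was 0.69 beside 0.00. With halved counts the interval of Bmp2 held 0 (-0.32 to 1.95), as did that of Bmp7.

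At passage 9 the cell types stood further apart than at passage 3 in Bmp2, Bmp3 and Bmp4. Bmp3 was 62.1-fold higher in DPCs (log2 difference 5.96, 5.53 to 6.68), where 2.5% of all genes passed upward. Bmp4 was 32.5-fold lower (-5.02, -5.30 to -4.80) and Bmp2 was 7.55-fold lower (-2.92, -4.03 to -2.26), where 3.91% passed downward. Fst differed by -1.65 (-1.96 to -1.38), Grem1 by -1.05 (-1.07 to -1.04) and Bambi by 0.46 (0.21 to 0.73). For Bmp6 (-0.16, -0.55 to 0.22), Bmp7 (-0.08, -0.73 to 0.55) and Nog (0.11, -0.49 to 0.71) no difference was detectable at this depth. That left 6 of 9 with an interval off 0, beside 70.7% of all genes, and a median of -0.16 beside -0.01. The comparisons at each passage use the same libraries as those between passages and are no separate evidence.

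Over the 4 libraries, the range of log2 CPM was 5.96 for Bmp3, 5.34 for Bmp4 and 4.51 for Bmp7, at percentiles 99.2, 98.6 and 97.2 of compared genes. Bmp2 followed at 2.92, then Nog at 2.05, Fst at 1.90, Bambi at 1.35 and Grem1 at 1.15. Bmp6 varied least, by 0.48, at percentile 22.3. The range of Bmp7 starts from a count of 0 and depends on the prior count: it was 6.47 with a prior count of 0.5, wider than the 6.04 of Bmp3, and 2.42 with 10.

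To compare levels between genes, the FPKM values, which allow for transcript length, were summed within each role. The summed FPKM of the 5 ligands was 28.0 in P3 DPCs, 8.66 in P9 DPCs, 67.8 in P3 DSCs and 54.6 in P9 DSCs. It was 3.23 times lower at passage 9 than at passage 3 in DPCs and 1.24 times lower in DSCs. These sums count Bmp3 as a ligand, and the difference in DPCs would be larger without it. The makeup of the sum stood apart in P9 DPCs. Bmp4 supplied 93.3%, 98.2% and 96.0% of ligand FPKM in P3 DPCs, P3 DSCs and P9 DSCs, but 19.5% in P9 DPCs, where Bmp3 supplied 64.3% and Bmp6 12.1%. By level, Bmp4 had 26.1, 1.69, 66.6 and 52.4 FPKM in the usual order of libraries, and Bmp3 had 0.657, 5.56, 0.255 and 0.0892.

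The antagonist side was dominated by Grem1 throughout. Its FPKM was 229.4 in P3 DPCs, 244.5 in P9 DPCs, 222.8 in P3 DSCs and 471.3 in P9 DSCs, between 97.7% and 99.2% of the summed FPKM of Grem1, Fst and Nog. Fst supplied 2.23% or less and Nog 0.285% or less. Antagonist FPKM over ligand FPKM was 8.39 in P3 DPCs, 28.5 in P9 DPCs, 3.34 in P3 DSCs and 8.72 in P9 DSCs. The ratio was thus higher at passage 9 in both cell types, 3.40 times in DPCs and 2.61 times in DSCs. Its ligand sum counts Bmp3, which restrains other BMPs and supplied 64.3% of that sum in P9 DPCs. Without Bmp3 the ratio in P9 DPCs, and its difference between passages in DPCs, would be larger. In DPCs the ligand sum was lower and the antagonist sum was 1.05 times that at passage 3, while in DSCs the antagonist sum was 2.10 times that at passage 3.

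The reads of Grem1 and Bmp4 alone give a ratio within each library that needs no scaling. It is no separate support, since these genes make up most of both sums in all libraries but P9 DPCs. There were 18.1 Grem1 reads per Bmp4 read in P3 DPCs (95% interval 17.3 to 18.9) and 290.9 in P9 DPCs (246.0 to 346.6). In DSCs there were 6.83 (6.64 to 7.02) at P3 and 18.3 (17.9 to 18.8) at P9. The ratio was 16.1 times higher at passage 9 in DPCs and 2.69 times higher in DSCs. These are ratios of RNA, and the proteins were not measured.

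**Figure D4:**
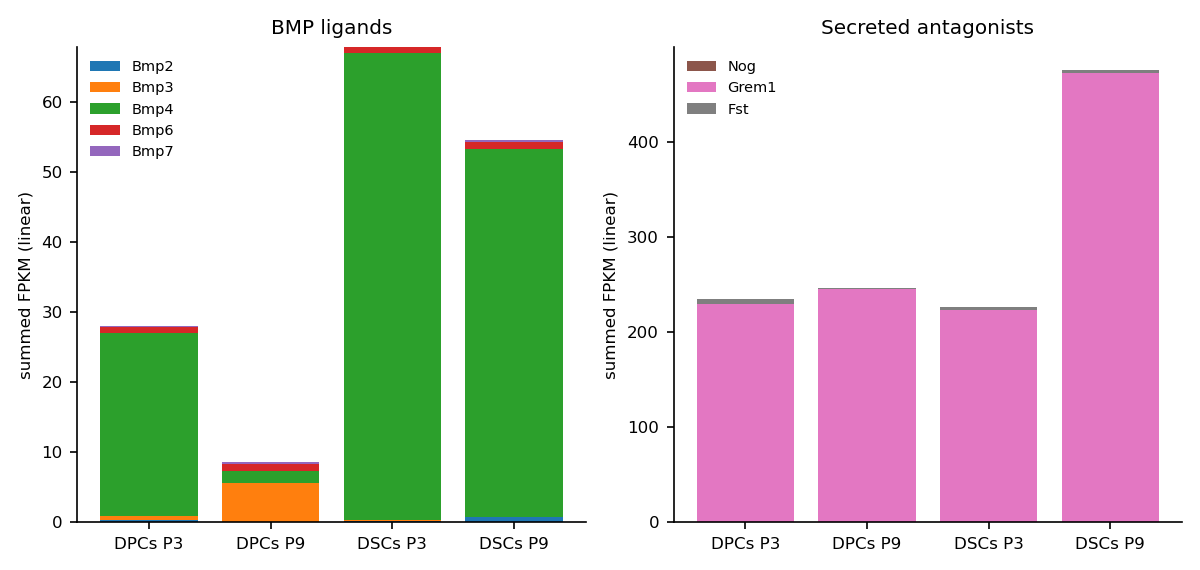
Summed FPKM (y axis, linear, starting at 0, with a different scale in each panel) of the 5 ligands (left) and of Nog, Grem1 and Fst (right) in each of the 4 single libraries, coloured by gene. Bmp4 makes up 93.3% to 98.2% of the ligand bar except in P9 DPCs, where Bmp3 makes up 64.3%, and Grem1 fills nearly all of each antagonist bar.

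The other genes of the pathway were counted from lists by role, and no list median printed here changed when genes at 0 counts were set to their lower bound. Their counts are to be read against the shares of all compared genes given above, 5.58% higher and 4.36% lower in DPCs and 2.67% higher and 1.16% lower in DSCs. Of 11 further BMP and GDF ligands, 5 had enough counts to be compared; 1 was at least 4-fold lower with passage in DPCs and 1 at least 4-fold higher in DSCs. Bmp8b, a ligand known from germ cells and brown fat, had 85 counts in P3 DPCs and 2 in P9 DPCs, a log2 difference of -4.46 (-8.44 to -3.48), with 90 and 42 in DSCs. Gdf7, a ligand known from tendon and spinal cord, had 0 and 5 counts in DPCs, and rose in DSCs from 13 to 176, by 3.31 (2.68 to 4.43) on the log2 scale. Between cell types, Gdf7 was at least 4.21-fold lower in DPCs at passage 3 with the 0 set to 3 counts (at least 2.10-fold if both mates were counted), with the near end of its interval at a log2 difference of -1.56, or -0.19 with halved counts. At passage 9 Gdf7 and Bmp8b were lower in DPCs by log2 differences of -4.36 and -3.19. Gdf11 and Gdf6 were under 4-fold in every comparison. They had 111 and 10.8 CPM in P9 DPCs, against 3.82 for Bmp4, and are not part of the ligand sums. The list's median log2 difference was 0.45 in DPCs and 1.08 in DSCs.

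Of 15 further antagonists and extracellular modulators, 12 were compared, and 1 fell in DPCs (4.36% of all genes did) while 0 passed in DSCs (2.67% of all genes higher and 1.16% lower). The one was Sostdc1, which blocks both BMP and Wnt signals and is made in the papilla. It had 61 counts in P3 DPCs and 0 in P9 DPCs, a fall of at least 19.8-fold with the 0 set to 3 counts (at least 9.91-fold if both mates were counted), and 0 and 2 counts in DSCs. The near end of its interval in DPCs was a log2 difference of -3.97, or -2.90 with halved counts. Chrdl1, a chordin-like BMP binder, separated the cell types at both passages, with 134 and 130 counts in DPCs against 5091 and 4168 in DSCs, log2 differences of -5.18 and -4.64. The list's medians with passage were 0.03 and 0.34.

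Of 7 proteases that cleave chordin or BMP precursors, 6 were compared, with 1 higher and 1 lower in DPCs and 0 in DSCs. Pcsk6, a convertase that cuts BMP precursors, rose in DPCs from 2440 to 22162 counts, by 3.22 (3.16 to 3.28) on the log2 scale, to near the 20906 and 30650 counts of DSCs. Tll1, a tolloid protease that cuts chordin, fell in DPCs from 720 to 166 counts (-2.07, -2.33 to -1.84) and was lower in DPCs than in DSCs at both passages (-3.02 and -4.12). At passage 3 Pcsk6 was also lower in DPCs, by a log2 difference of -3.05. The medians were -0.13 in DPCs and 0.07 in DSCs.

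Of 12 receptor and co-receptor genes, 11 were matched and compared, since Hjv was not found under that name. In DPCs 9 of the 11 had a positive log2 difference with passage and 1 passed 4-fold, and in DSCs 7 were positive and 0 passed. Of all compared genes 51.3% were positive and 5.58% passed upward in DPCs, and 50.2% and 2.67% in DSCs. The one was Rgma, a GPI-anchored co-receptor, with 552 counts in P3 DPCs and 2225 in P9 DPCs (2.04, 1.91 to 2.18), and 1724 and 1911 in DSCs. The receptor genes Bmpr1a and Bmpr2 had log2 differences of 0.89 and 0.77 in DPCs and 0.41 and 0.13 in DSCs. The list's medians were 0.96 and 0.39, beside 0.03 and 0.00 over all compared genes.

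Of 14 genes of the intracellular response, all were compared. Atoh8, a helix-loop-helix factor induced by BMP, rose in DPCs from 126 to 507 counts (2.03, 1.76 to 2.34), against 656 and 818 in DSCs. Ranbp3l, which exports Smads from the nucleus, rose in both cell types, from 17 counts to 601 in DPCs and to 913 in DSCs, by log2 differences of 5.03 and 5.33; the study picked this gene from these libraries, so it is not independent evidence. Atoh8 was lower in DPCs than in DSCs at passage 3 (-2.32). The others were under 4-fold in every comparison, including Id1 (0.88 in DPCs and 1.47 in DSCs with passage), Id2 (1.56 and 0.10), Id3 (0.06 and 0.71) and Id4 (-1.58 and 0.30). The list's medians were 0.12 and 0.18.

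**Figure D5:**
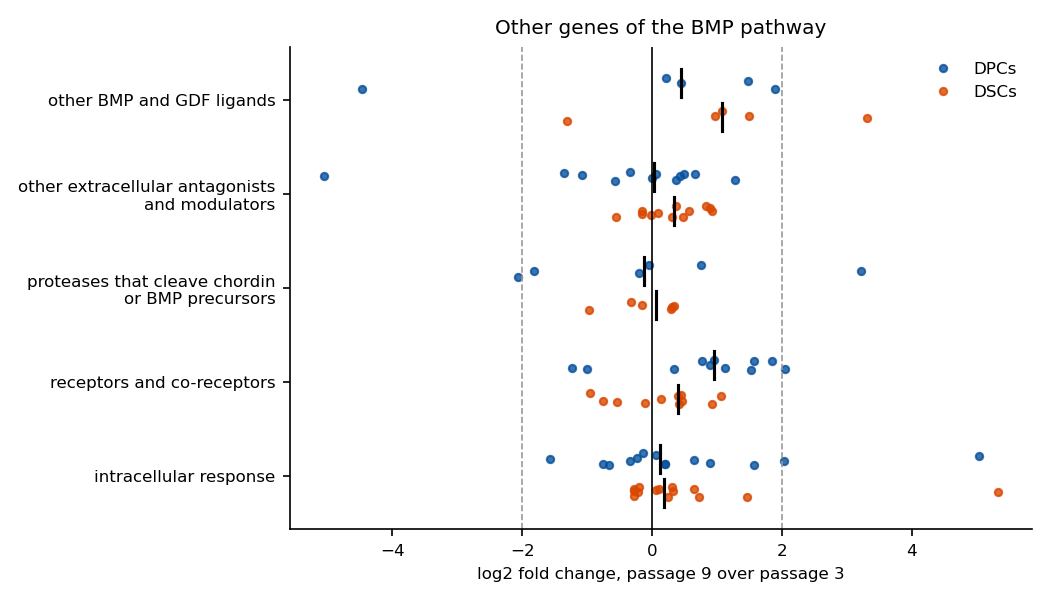
Log2 fold change with passage (x axis) of the other genes of the BMP pathway, by list, in DPCs (blue) and DSCs (orange); each point is 1 gene, the vertical offset within a list only separates points, black ticks are medians and dashed lines mark 4-fold. The receptor genes have medians of 0.96 in DPCs and 0.39 in DSCs, and Ranbp3l lies beyond 5 in both.

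The genes with the most similar levels across the 4 libraries were sought for Bmp3, Bmp4 and Bmp7, the genes with the widest ranges, by Euclidean distance of centred log2 CPM among genes with a mean count of at least 100. For Bmp4 the nearest were Adm2 (distance 0.29), Hr (0.33) and Eya2 (0.34), of 7 genes within a distance of 1. Adm2, which encodes a peptide hormone, had 90, 5, 340 and 274 counts in P3 DPCs, P9 DPCs, P3 DSCs and P9 DSCs. Hr, the hairless corepressor of the hair cycle, had 297, 16, 692 and 596. Thus both shared the low point in P9 DPCs. For Bmp3 the nearest were Cttnbp2 (0.69), Hecw2 (0.87) and Clca2 (1.15). For Bmp7 they were Tspan11 (0.58), 1810011O10Rik (0.71) and Itga8 (0.82). With 4 libraries, likeness of this kind is a description only.

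The libraries were checked against marker genes of the labelled cells and of other cells. Dermal papilla markers summed to 272 and 185 CPM in P3 and P9 DPCs and to 460 and 411 CPM in P3 and P9 DSCs, so that the sum was lower in the cells labelled as papilla. By gene, Sox2 was higher in DPCs (1677 and 1491 counts against 269 and 178), Ncam1 was higher in DSCs (11755 and 15584 against 3642 and 1673), and Alpl, Corin, Prom1 and Lepr had at most 23 counts in any library. Lef1 went from 508 counts to 2 with passage in DPCs. Dermal sheath and smooth muscle markers summed to 9761 and 3538 CPM in P3 and P9 DPCs and to 7731 and 6955 CPM in P3 and P9 DSCs. At passage 3 that sum was thus higher in DPCs than in the cells labelled as sheath. Fibroblast markers summed to 4958 to 23403 CPM. Both sums were lowest in P9 DPCs, the library in which Bmp4 and Fst were lowest and Bmp3 highest. Single markers of these lists went the other way: Pdgfra had 29093 counts in P9 DPCs against 4594 to 12132 in the others, and Itga8 had 34714 against 1674 to 23287. Keratinocyte markers summed to 2.07 CPM or less, with Krt5 and Krt14 among 5 of 8 at 0 in all libraries, and melanocyte markers to 1.03 or less with 4 of 5 at 0. Other lists ran lower at passage 9 than at passage 3 within each cell type: immune (9.03 to 32.9 CPM over the libraries, 1 of 5 markers at 0 in all), endothelial (0.111 to 5.48), Schwann (6.35 to 19.4, with Sox10 at 0 in both passage 9 libraries) and bone and cartilage (0.920 to 40.7, highest in P3 DSCs). The part of these lists in the values of the BMP genes was not tested.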

How the data were processed

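The authors deposited raw counts per gene for all 4 libraries in 1 table and FPKM values for each library. The counts were deposited as whole numbers without scaling. The FPKM values carry a scaling by the authors for the length of the transcript and the depth of the library. The submitters' processing notes name Bowtie 0.12.2 and the builds mm8 and mm9, yet 51633 of the deposited gene IDs were found in GENCODE M21 (GRCm38), 94.1% of these with identical positions, so GRCm38 was used. The labels name a TruSeq kit and the study's methods NEBNext with poly-T selection, and the use of strand was not given in the sources used here. Even counts were in excess (in P3 DPCs 3764 genes had an even count of 2 to 20 and 2398 an odd count of 3 to 21), a pattern that arises where both mates of a pair are counted.

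Counts were scaled with TMM in edgeR 4.0.16 (R 4.3.3), and genes with a mean count of at least 10 were compared. Fold changes are the log2 CPM of one library minus that of another (prior count 2), and a gene was called at 4-fold, the study's threshold. Words such as rose and fell are kept for called genes. Intervals at the 95% level are exact Clopper-Pearson, and a count of 0 allows up to 3 counts (0.0658 to 0.0836 CPM). The fold and interval steps were run on simulated counts with known folds. The genes named are the 9 members, the called genes of 5 pathway lists, some uncalled relatives and, for the 3 members with the widest range, the 3 genes of nearest pattern. The uncalled relatives and the genes set beside them were added after their values were seen. Members and lists were chosen with earlier results of these data known. Alternatives were other scalings (total counts, upper quartile, DESeq2 1.42.0 size factors), prior counts of 0.5 and 10, no filter and a mean count of at least 100, FPKM with pseudocounts of 0.1 and 1, and halved counts. Promoter sequences are from RefSeq. No columns were left out, and 1 gene of the lists is counted but not reported here.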

Additional observations from a re-analysis of the deposited data

Results flagged for a closer look

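For 3 genes the passage difference had opposite signs in DPCs and DSCs, with each counting interval off 0. The passage difference in DPCs minus that in DSCs was -3.69 on the log2 scale for Bmp2, 4.13 for Bmp3 and -2.34 for Fst. With 1 library per group the difference between the cell types was not tested. For Bmp3 the DSC side rested on 41 and 27 counts and its interval held 0 with halved counts. For Bmp2 the DPC side rested on 41 and 13 counts.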

How the results depend on the processing

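The calls of Bmp4 in DPCs and at passage 9, and of Bmp3 at passage 9, held under every alternative run, and between cell types at passage 9 either 3 or 2 members were called under each of them. Other counts of members called depended on low counts. In DPCs with passage the count was 3, and 4 with a prior count of 0.5, 2 with a prior count of 10, a mean count of at least 100, FPKM with a pseudocount of 0.1 or halved counts, and 1 on FPKM with a pseudocount of 1, where Bmp3 stood at 1.99. In DSCs with passage it was 2, and 1 with a prior count of 10 and 0 on FPKM with either pseudocount or with a mean count of at least 100, which removes Bmp2, Bmp7 and Nog. In both cell types it was 0, and 1 with a prior count of 0.5 (Bmp7, 2.06 in DPCs). Between cell types at passage 3 it was 2, and 1 with total counts, where Nog stood at -1.95, and 0 with a prior count of 10, a mean count of at least 100, FPKM with either pseudocount, or halved counts. Of 348 member values under alternatives, 323 kept their side of the threshold and their sign, 20 fell under 4-fold, 1 passed it, and 4 near 0 changed sign. No called value changed sign. Of 30 member intervals off 0, 26 stayed so with halved counts. The ratio of antagonist to ligand, by CPM per kilobase of GENCODE M21 exons (chosen after seeing the data, as were the folds and calls on halved counts and the other prior counts for the range of Bmp7 and its difference between cell types), was 9.38, 32.9, 3.69 and 9.65 in the order of libraries used above; the planned form, with a length from the deposited tables, was not run because they give none. No analysis paired by replicate was possible because each group has 1 library, and a fit of passage with cell type as a block was not run. Genes under about 10 counts in a library are limited by depth.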
